A study of Mus musculus with 6 samples.

Results

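The genes described here encode voltage-gated and potassium-selective ion channels and their accessory subunits, measured in the mouse retina. They were chosen by gene symbol from the array's annotation, as every probe set with a single symbol beginning with Kcn, Hcn, Cacna, Cacnb or Cacng, or with Scn, a number and the letter a or b. Kcnj10, Cacna1f and Cacna2d4 were left out. This gave 137 probe sets of 94 genes, among 12393 genes with a single symbol on the array, and each gene was represented by its brightest probe set over the 6 arrays. The rule used no difference between the groups, though it was set with earlier results of these data known.

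Retinal total RNA at postnatal day 7 was hybridised to Affymetrix arrays, with 3 arrays from wildtype C57BL/6 mice and 3 from mice labelled as a C57BL/6 knockout of a single gene. Strain label, age and tissue were shared by the groups, and no treatment other than dissection is given. How many animals went into each array is not labelled, so the spread between arrays may be partly technical. Whole retina was measured, so fewer cells of a type and less RNA per cell cannot be told apart.

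Voltage-gated channels open when the membrane potential changes and let potassium, sodium or calcium ions pass, while inward rectifiers and tandem-pore potassium channels set the resting potential. In the retina, most photoreceptors and bipolar cells signal with graded potentials shaped by potassium, HCN and calcium channels, and ganglion cells fire sodium channel action potentials. In the days before eye opening these cells are still forming synapses, and calcium channels made of a pore subunit with alpha2delta and beta subunits gate transmitter release.

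Of the 94 genes, 40 had a mean scaled signal above 62.4, the 40th percentile of all probe sets, and were tested. Scaled signal is the deposited linear signal after each array was brought to the same trimmed mean. The other 54 lay below this filter, with mean signals from 1.15 to 60.8 (median 25.7), and 23 of them lay under the pseudocount of 19.1 that was added before taking log2. Just inside the filter were Kcna1 (64.0), Hcn2 (68.2) and Cacng2 (74.2), and just outside were Kcna4 (60.8), Kcnmb1 (58.9) and Kcnh3 (57.2). A dim probe set can mean a scarce transcript or a poor probe, and the levels of different probe sets are not compared.

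None of the 40 tested channel genes passed a Benjamini-Hochberg adjusted p of 0.05 in limma (the smallest adjusted p was 0.9985), and 1 had an unadjusted p under 0.05. Over all 13575 probe sets tested, 0.0147% passed and 3.82% had an unadjusted p under 0.05. The gene with the largest difference was Cacna2d2, the only one of the 40 with at least 1.5-fold between group means and no overlap between the arrays of the groups. It was higher in the knockout, a pattern held by 0.383% of all tested probe sets in that direction and 1.56% in the other, in which no channel gene had it. Values were positive for 18 of the 40 (45%) and negative for 22, against 50.1% positive over all tested probe sets. This split followed the scaling between arrays: 23 of 40 were positive with quantile normalization, 27 with median scaling and 31 with no rescaling, where the shares over all tested probe sets were 54%, 66.5% and 87.6%. The median log2 fold change (knockout minus wildtype, on the log2 scale of signal plus pseudocount) was -0.020 for the 40 genes and 0.00031 for all tested probe sets.

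**Figure D1:**
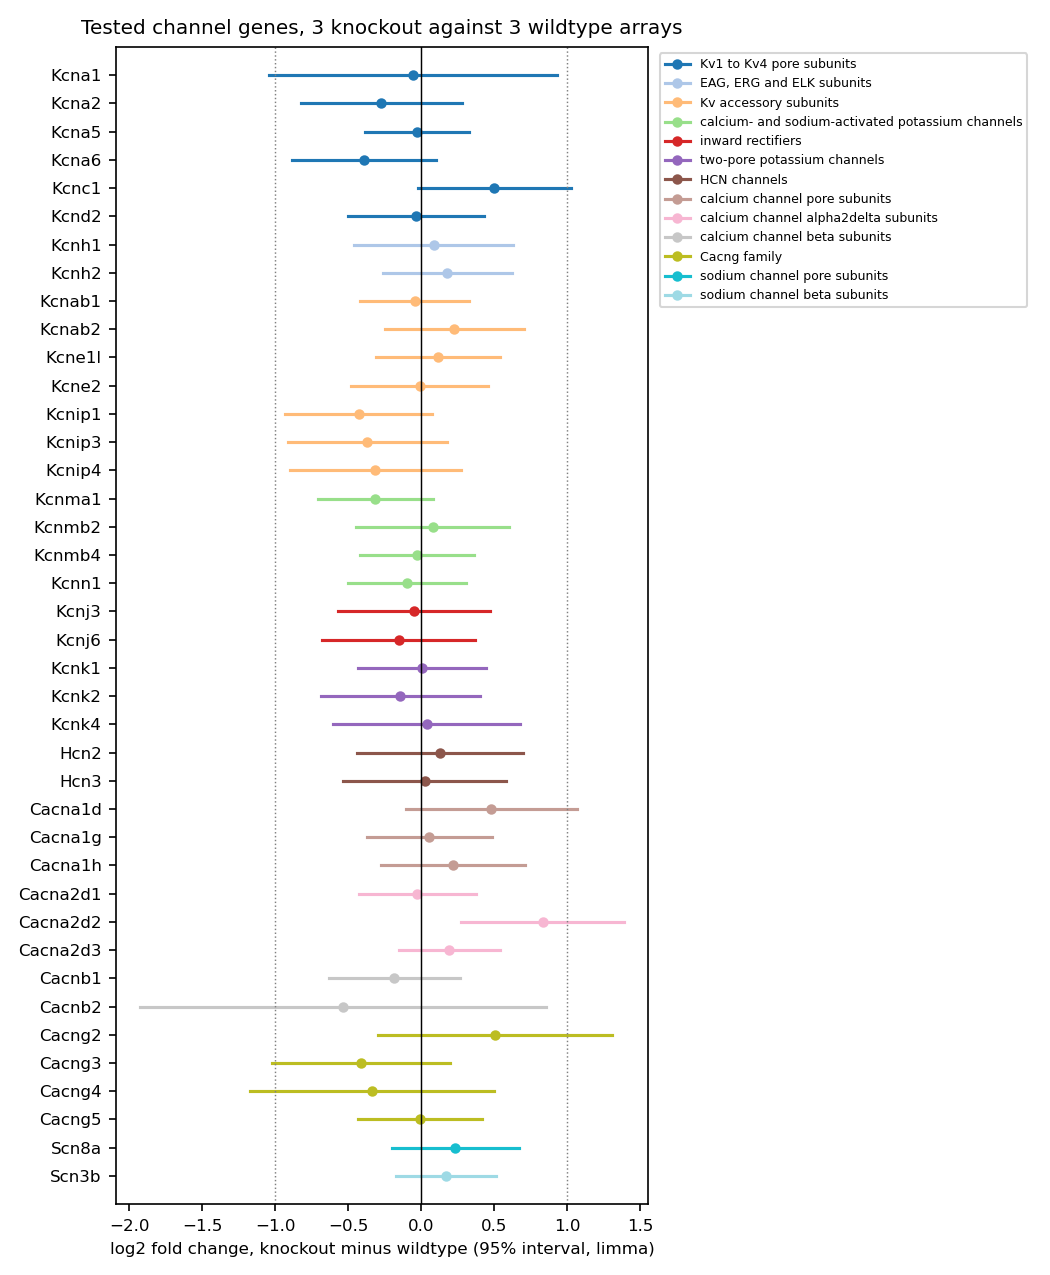
Log2 fold change (knockout minus wildtype, horizontal axis) of the 40 tested channel genes, with the 95% interval from limma and colours for the channel family. Dotted lines mark a 2-fold change of signal plus pseudocount. The interval of Cacna2d2 (0.27 to 1.39) is the only one of the 40 that leaves out 0, and the intervals of 32 genes lie between the dotted lines.

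The intervals show how far these arrays limit each value. The median half-width of the 95% interval was 0.50 on the log2 scale, and the standard errors ran from 0.15 (Scn3b) to 0.62 (Cacnb2). For 32 of the 40 genes the interval lay within a 2-fold change of signal plus pseudocount in either direction, as it did for 90.8% of all tested probe sets. The 8 others were Kcna1, Kcnc1, Cacna1d, Cacna2d2, Cacnb2, Cacng2, Cacng3 and Cacng4. For a dim gene, a 2-fold change on this scale is a larger change in signal itself. The median size of the log2 fold change was 0.16 for the channel genes and 0.13 for all tested probe sets.

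Calcium channel alpha2delta subunits are extracellular proteins that raise the number of calcium channels at the membrane, and all 3 measured members were tested. Cacna2d2, which encodes alpha2delta-2, had scaled signals of 304, 188 and 238 in wildtype arrays 1 to 3 and 617, 337 and 408 in knockout arrays 1 to 3. Every knockout array lay above every wildtype array, with knockout array 1 the highest. Wildtype averaged 243 ± 58.2 and knockout 454 ± 146 (SD, n = 3), 1.86-fold apart. On the log2 scale the knockout was higher by 0.83 ± 0.25 (SE; 95% interval 0.27 to 1.39; unadjusted p = 0.0081, adjusted p = 0.9985 in limma). Without knockout array 1 the fold was 1.53 and the log2 fold change 0.59. Without both knockout array 1 and wildtype array 2 it was 1.37-fold (log2 fold change 0.43), still with no overlap but under 1.5-fold. The other Cacna2d2 probe sets did not exceed 12.98 on any array and were not tested, so a single probe set carries this value.

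Cacna2d3, encoding alpha2delta-3, had 330, 291 and 328 in wildtype arrays and 339, 359 and 394 in the knockout. The groups did not overlap here either, but the means were 1.15-fold apart, with a log2 fold change of 0.19 ± 0.15 (SE; adjusted p = 0.9985 in limma). With no rescaling of the arrays the groups overlapped. Non-overlap of any size, higher in the knockout, was found for 4.05% of all tested probe sets, and for 2 of the 40 channel genes, both of this family. Cacna2d1, encoding the alpha2delta-1 subunit to which gabapentin binds, had 117, 149 and 137 in wildtype against 146, 127 and 121 in knockout arrays. Its groups overlapped, and its log2 fold change of -0.03 ± 0.18 (SE) was positive, at 0.03 to 0.25, under the other 3 scalings.

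**Figure D2:**
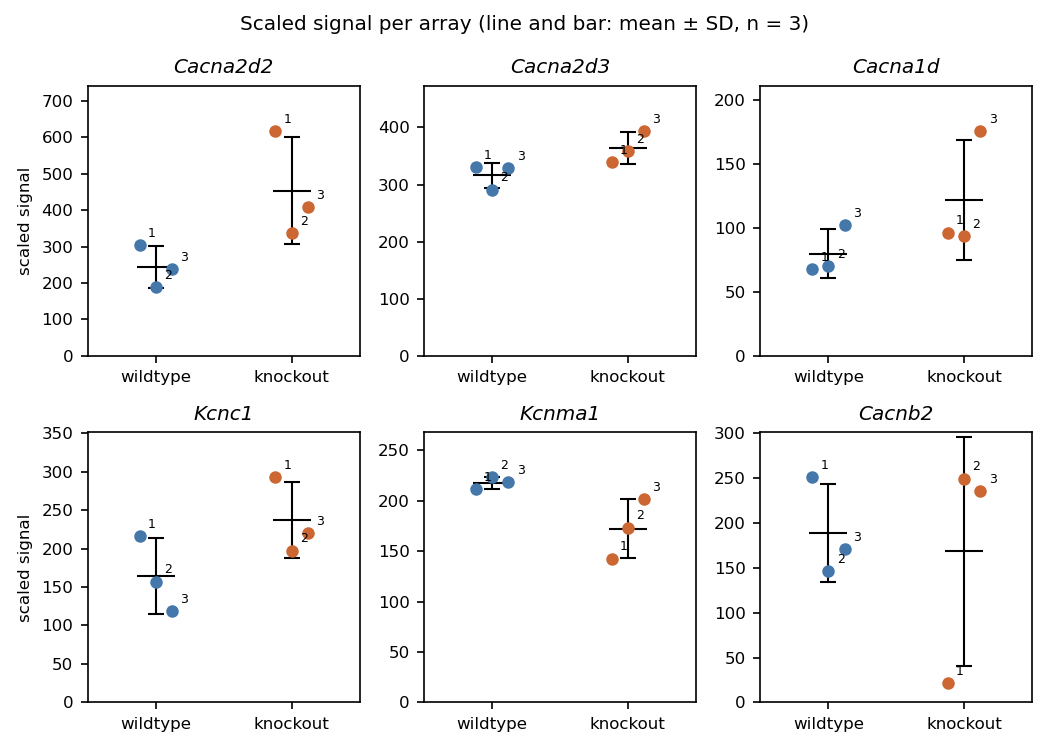
Scaled signal (vertical axis, from 0) of 6 channel genes in the 3 wildtype and 3 knockout arrays; each numbered point is an array and the line and bar are the mean ± SD. The groups are separate for Cacna2d2, Cacna2d3 and Kcnma1, while Cacnb2 has a single low point, knockout array 1 at 21.5.

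Several measures moved with the group beside Cacna2d2. The marker lists among them were chosen with earlier results of these data known, so a separation of their sums is not independent evidence. The summed scaled signal of the ganglion cell markers (8 of 10 measured, 7 above the filter) was 4678 to 5156 in wildtype and 5417 to 5712 in knockout arrays, and that of the horizontal cell markers (6 of 7 measured) was 1750.1 to 1890.2 and 1906 to 2306. Rod markers (10 of 10 measured) ran the other way, at 30333 to 32960 in wildtype and 25461 to 30004 in knockout, as did skeletal muscle markers (4 of 9 above the filter), at 538 to 697 and 376 to 435. Without the brightest gene of each list the horizontal sums overlapped (841 to 875 and 744 to 929.5, without Septin4), as did the rod sums (22690 to 25073 and 19270 to 22952, without Sag). The ganglion sums (2596 to 2623 and 2726 to 2986, without Nefl) and the muscle sums did not. Among tested markers, log2 fold changes were 4 positive and 3 negative for ganglion cells, and 4 and 1 for horizontal cells. For rods they were 1 and 9, and for muscle 0 and 4. The sums of the cone, bipolar, amacrine, Mueller glia, lens, pigment cell and blood lists overlapped between the groups. For the Actb control, the signal of the 3' over the 5' probe set, which rises as RNA degrades, was 1.44 to 1.64 in wildtype and 1.69 to 2.17 in knockout arrays, while the same ratio for Gapdh overlapped, at 0.82 to 0.98 and 0.88 to 1.18. The part of these measures in the Cacna2d2 value was not tested.

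Calcium channel pore subunits form the ion path, and 3 of 8 measured genes were tested, with log2 fold changes from 0.05 to 0.48. Cacna1d, encoding the L-type channel Cav1.3, had 67.6, 70.01 and 102 in wildtype arrays and 96.4, 93.7 and 176 in the knockout. Wildtype array 3 lay above 2 of the knockout arrays, so the groups overlapped, and the log2 fold change was 0.48 ± 0.26 (SE; unadjusted p = 0.097; 0.22 without knockout array 3). A second tested Cacna1d probe set had means of 80.9 in wildtype and 75.4 in knockout, with a log2 fold change of -0.07 ± 0.21 (SE), so the direction was not shared between them. Cacna1h, encoding the T-type channel Cav3.2, had 153, 151 and 161 in wildtype and 138, 172 and 258 in knockout, and its log2 fold change of 0.22 ± 0.22 (SE) became -0.01 without knockout array 3. The third, Cacna1g, encoding the T-type channel Cav3.1, had 0.05 ± 0.19 (SE). Cacna1a, Cacna1b, Cacna1c, Cacna1e and Cacna1s lay below the filter, with mean signals from 4.45 (Cacna1s, the skeletal muscle pore subunit) to 56.1 (Cacna1a).

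Calcium channel beta subunits bind the pore subunit inside the cell and aid its transport to the membrane. Cacnb2, which photoreceptor synapses use, had 251, 146 and 171 in wildtype against 21.5, 249 and 235 in knockout arrays. Knockout arrays 2 and 3 lay within the wildtype range, and knockout array 1 lay far below every other array. The log2 fold change was -0.54 ± 0.62 (SE), and without knockout array 1 its sign turned, to 0.36. Cacnb1 had 146, 126 and 92.4 in wildtype and 100.2, 108 and 101 in knockout (log2 fold change -0.18 ± 0.20, SE), a wide wildtype group around a narrow knockout group. Cacnb4 lay below the filter, at a mean of 52.7.

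The Cacng genes encode relatives of the muscle channel's gamma subunit, of which several are auxiliary subunits of AMPA-type glutamate receptors, and 4 of 8 were tested. Cacng2, encoding stargazin, had 20.9, 94.4 and 70.1 in wildtype arrays and 78.6, 74.9 and 107 in the knockout. The low wildtype array 1 set most of its log2 fold change, which was 0.50 ± 0.36 (SE) with it and 0.06 without it. Cacng3 had 249, 258 and 216 in wildtype and 107, 189 and 263 in knockout, a log2 fold change of -0.42 ± 0.27 (SE) that was -0.10 without knockout array 1. Cacng4 ranged from 337 to 622 in wildtype and from 214 to 679 in knockout arrays. Cacng5 had -0.01 ± 0.19 (SE). The 4 genes below the filter, Cacng1, Cacng6, Cacng7 and Cacng8, had mean signals from 9.62 to 25.6.

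Of the Kv1 to Kv4 genes, which encode the pore subunits of voltage-gated potassium channels, 6 of 12 were tested. Their log2 fold changes were 1 positive and 5 negative, a split that became 3 and 3 with quantile normalization and 4 and 2 with median scaling or none. Kcnc1, encoding the fast Kv3.1 channel that lets neurons fire at high rates, had 216, 157 and 119 in wildtype against 292, 197 and 220 in knockout arrays. Only wildtype array 1 reached into the knockout range, above knockout array 2, and the means were 1.44-fold apart (log2 fold change 0.50 ± 0.23, SE; 95% interval -0.03 to 1.02; unadjusted p = 0.060, limma adjusted p = 0.9985; 0.31 without wildtype array 3). It met the rule of 1.5-fold without overlap when wildtype array 1 or knockout array 2 was left out, and with no rescaling of the arrays. Kcna6, encoding Kv1.6, had 86.0, 109.5 and 74.8 in wildtype and 52.0, 80.3 and 60.1 in knockout, with knockout array 2 inside the wildtype range (log2 fold change -0.39 ± 0.22, SE). Kcna6 too met the rule, lower in the knockout, when wildtype array 3 or knockout array 2 was left out. Cacna1d, Cacng2, Cacng3, Cacng4, Kcna1, Kcnip1 and Kcnip3 also met it in some drop of a single array. Kcna1, Kcna2, Kcna5 and Kcnd2 had log2 fold changes between -0.28 and -0.03, and Kcna1 ranged from 15.02 to 106 within the knockout group. Kcna3, Kcna4, Kcna7, Kcnc4, Kcnd1 and Kcnd3 lay below the filter, with means from 14.5 to 60.8.

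The silent Kv genes Kcns1 and Kcns2, whose products pass current only together with other Kv subunits, and the Kv7 genes Kcnq1 and Kcnq5 all lay below the filter, with means of 2.90, 33.8, 13.7 and 6.21. Of the 4 genes of the EAG, ERG and ELK group, Kcnh2, encoding the ERG1 channel of cardiac repolarisation, had 214, 198 and 153 in wildtype arrays and 263, 198 and 187 in the knockout. The groups overlapped, and the log2 fold change was 0.18 ± 0.20 (SE). Kcnh1, encoding EAG1, had a wildtype range of 62.8 to 135 around a narrow knockout range of 94.2 to 103, and a log2 fold change of 0.08 ± 0.24 (SE). Kcnh3 and Kcnh7 lay below the filter.

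Accessory Kv subunits set the gating and transport of Kv channels, and 7 of 12 were tested. All 3 tested KChIP genes, which encode calcium-binding partners of Kv4 channels, had negative values, and this held under each of the 4 scalings run. Kcnip2, the KChIP gene below the filter, had a positive value of 0.12. Kcnip1 had 413, 344 and 388 in wildtype against 194, 364 and 301 in knockout arrays, so knockout array 2 lay within the wildtype range and knockout array 1 was the lowest (log2 fold change -0.43 ± 0.22, SE; -0.19 without knockout array 1). Its other tested probe set had 0.01 ± 0.22 (SE). Kcnip3, whose product is also the transcriptional repressor DREAM, had 103, 129 and 80.3 in wildtype and 62.8, 105 and 62.8 in knockout (log2 fold change -0.37 ± 0.24, SE). Kcnip4 had -0.32 ± 0.26 and -0.36 ± 0.28 (SE) in its pair of tested probe sets, both lowest in knockout array 1, at 93.5 and 63.4. In the brighter one, knockout arrays 2 and 3, at 176 and 197, lay within the wildtype range of 156 to 225.

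The beta subunit gene Kcnab2 had 301, 207 and 275 in wildtype arrays and 395, 271 and 264 in the knockout, a log2 fold change of 0.23 ± 0.21 (SE) that was 0.05 without knockout array 1. Kcnab1 had -0.05 ± 0.17 in its brighter and -0.53 ± 0.34 in its other tested probe set (SE), where knockout array 1 was at 45.5 and the other 5 arrays at 128 to 173. The single-pass subunits Kcne1l and Kcne2 had 0.11 ± 0.19 and -0.01 ± 0.21 (SE). Kcnab3, Kcnip2, Kcne1, Kcne3 and Kcne4 lay below the filter, with means from 2.99 to 48.8.

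**Figure D3:**
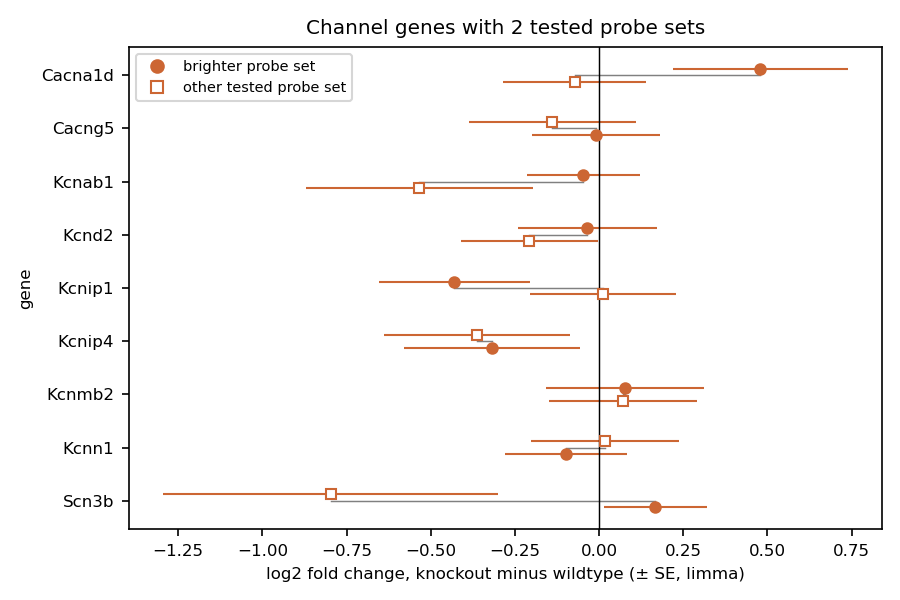
Log2 fold change ± SE (horizontal axis) of the 9 channel genes with 2 tested probe sets each, the brighter as a filled circle and the other as an open square. The pair had the same sign for 5 genes and opposite signs for Cacna1d, Kcnip1, Kcnn1 and Scn3b.

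Calcium-activated potassium channels couple calcium entry to repolarisation, and 4 of 9 genes grouped with them by symbol were tested. Not all 9 need be opened by calcium. Kcnma1, encoding the pore of the BK channel, which rod bipolar and amacrine cells use, had 211, 223 and 218 in wildtype against 142, 173 and 202 in knockout arrays. Each knockout array lay below each wildtype array, and the wildtype arrays were close together, at 218 ± 5.97 against 172 ± 29.7 (SD, n = 3). The mean was 1.26-fold lower in the knockout, with a log2 fold change of -0.32 ± 0.17 (SE; limma adjusted p = 0.9985; -0.20 without knockout array 1). Non-overlap of any size, lower in the knockout, was found for 5.05% of all tested probe sets and for this 1 of the 40 channel genes. The groups overlapped with median scaling and with no rescaling, and the dimmer Kcnma1 probe set had the opposite sign, 0.22, at a signal under the filter.

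The BK beta subunit genes Kcnmb2 and Kcnmb4, whose products shift the calcium dependence and gating of the BK pore, had log2 fold changes of 0.08 ± 0.23 and -0.03 ± 0.17 (SE). Kcnmb1, the smooth muscle form, lay under the filter. Kcnn1, encoding the small-conductance channel SK1, had 151, 185 and 132 in wildtype and 154, 143 and 133 in knockout, with groups that overlapped (log2 fold change -0.10 ± 0.18, SE). Kcnn2, Kcnn3, Kcnn4 and Kcnu1 lay below the filter, with means from 3.96 to 53.7.

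Inward rectifiers pass potassium more easily into the cell than out of it, and 10 of the 12 measured genes lay below the filter, with means from 1.15 (Kcnj2) to 39.4 (Kcnj8). The 2 tested genes encode subunits of the channels opened by G protein beta-gamma. Kcnj3, encoding GIRK1, had 133, 105 and 70.8 in wildtype arrays and 101, 81.4 and 107 in the knockout, and Kcnj6, encoding GIRK2, had 97.0, 100.1 and 64.7 and then 56.3, 82.0 and 91.3. Both overlapped between groups, with log2 fold changes of -0.05 ± 0.23 and -0.15 ± 0.23 (SE). Kcnj14, encoding Kir2.4, had a mean of 35.8 over the 6 arrays.

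Tandem-pore channels carry the background potassium current, and 3 of 8 genes were tested. Kcnk1, encoding TWIK-1, had 279, 257 and 288 in wildtype against 366, 236 and 241 in knockout arrays, with a log2 fold change of 0.0043 ± 0.20 (SE). Kcnk2, encoding the mechanosensitive TREK-1, had 128, 109 and 116 in wildtype and 66.3, 131 and 128 in knockout, where only knockout array 1 stood below the wildtype range (-0.14 ± 0.24, SE; 0.12 without that array). Kcnk4, encoding TRAAK, had 0.04 ± 0.29 (SE). The pacemaker genes Hcn2 and Hcn3, whose channels open on hyperpolarisation, had 70.6, 79.2 and 43.7 against 94.96, 57.1 and 63.9, and 218, 201 and 118 against 139, 179.8 and 219. The groups overlapped for both, with log2 fold changes of 0.13 ± 0.25 and 0.02 ± 0.25 (SE).

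Sodium channels drive the action potential, and 1 of 8 pore subunit genes was above the filter. Scn8a, encoding Nav1.6 of the axon initial segment, had 132, 108 and 111 in wildtype arrays and 114, 142 and 171 in the knockout. Knockout array 1 lay within the wildtype range and the other knockout arrays above it, and the log2 fold change was 0.23 ± 0.19 (SE). The beta subunit gene Scn3b had 352, 341 and 401 in wildtype and 428, 420.1 and 386 in knockout, with an overlap between wildtype array 3 and knockout array 3 (0.17 ± 0.15, SE). Its other tested probe set had -0.80 ± 0.50 (SE), with 6.29 in knockout array 1 and 66.0 to 107 in the other arrays. Among the 7 pore genes below the filter, means ran from 1.26 (Scn7a) to 56.1 (Scn2a). Scn10a, chosen after its values were seen as the only gene below the filter past the 1.5-fold rule without overlap, had 1.82 to 2.89 in wildtype and 3.48 to 13.1 in knockout, all under the pseudocount.

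**Figure D4:**
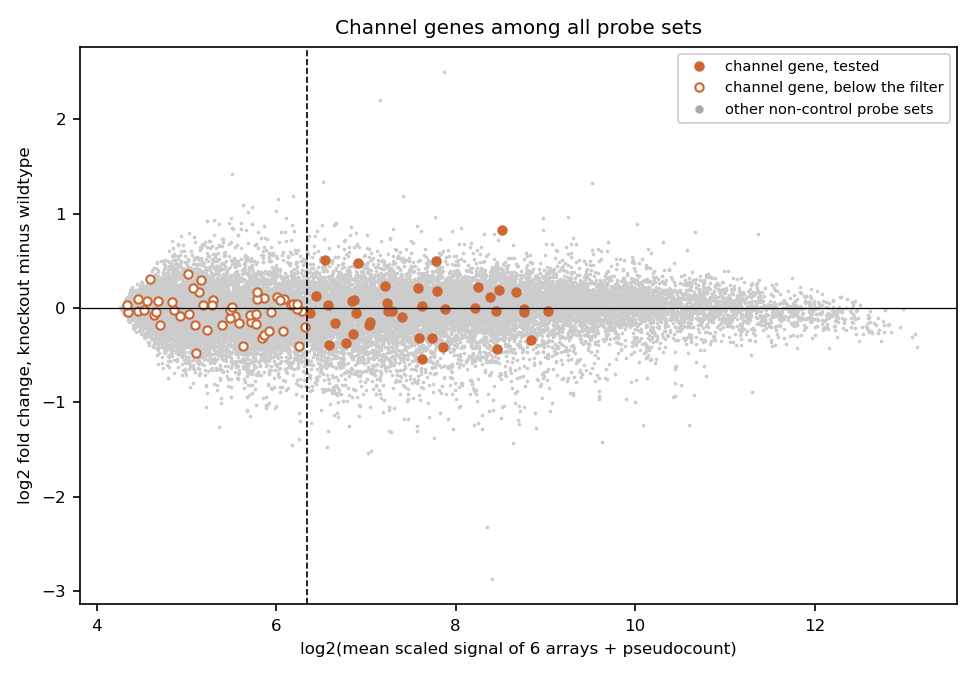
Log2 fold change (knockout minus wildtype, vertical axis) against log2 of the mean scaled signal plus pseudocount, with all other non-control probe sets in grey, the 40 tested channel genes filled and the 54 below the filter (dashed line) open. Cacna2d2, at 0.83, is the highest of the channel genes, and all of them lie within the range of the other probe sets.

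Partner genes, which encode proteins that anchor, transport or tune these channels, were taken from a list of 40, of which 35 were measured and 25 tested. None passed the test, with 11 positive and 14 negative values and a median log2 fold change of -0.02 (smallest limma adjusted p = 0.9985). Vamp2, a vesicle fusion protein that binds Kv channels, had 769, 652 and 774 in wildtype against 1108, 1045 and 1021 in knockout arrays, without overlap (log2 fold change 0.52 ± 0.14, SE; 1.44-fold). Cntn1, a cell adhesion protein that binds sodium channels, had 1317, 1353 and 1315 in wildtype and 1023, 997 and 1095 in knockout, also without overlap (-0.35 ± 0.12, SE). Both were named after their values were seen, as the only tested partners whose groups did not overlap, 1 of the 25 in each direction. Over all tested probe sets, 4.05% were higher and 5.05% lower in the knockout without overlap. Ank3, which anchors sodium channels at the axon initial segment, had 0.41 ± 0.20 (SE), Fgf11, an intracellular sodium channel partner, 0.55 ± 0.21 and Pex5l, a partner of HCN channels, -0.27 ± 0.22; they too were picked with their values known.

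**Figure D5:**
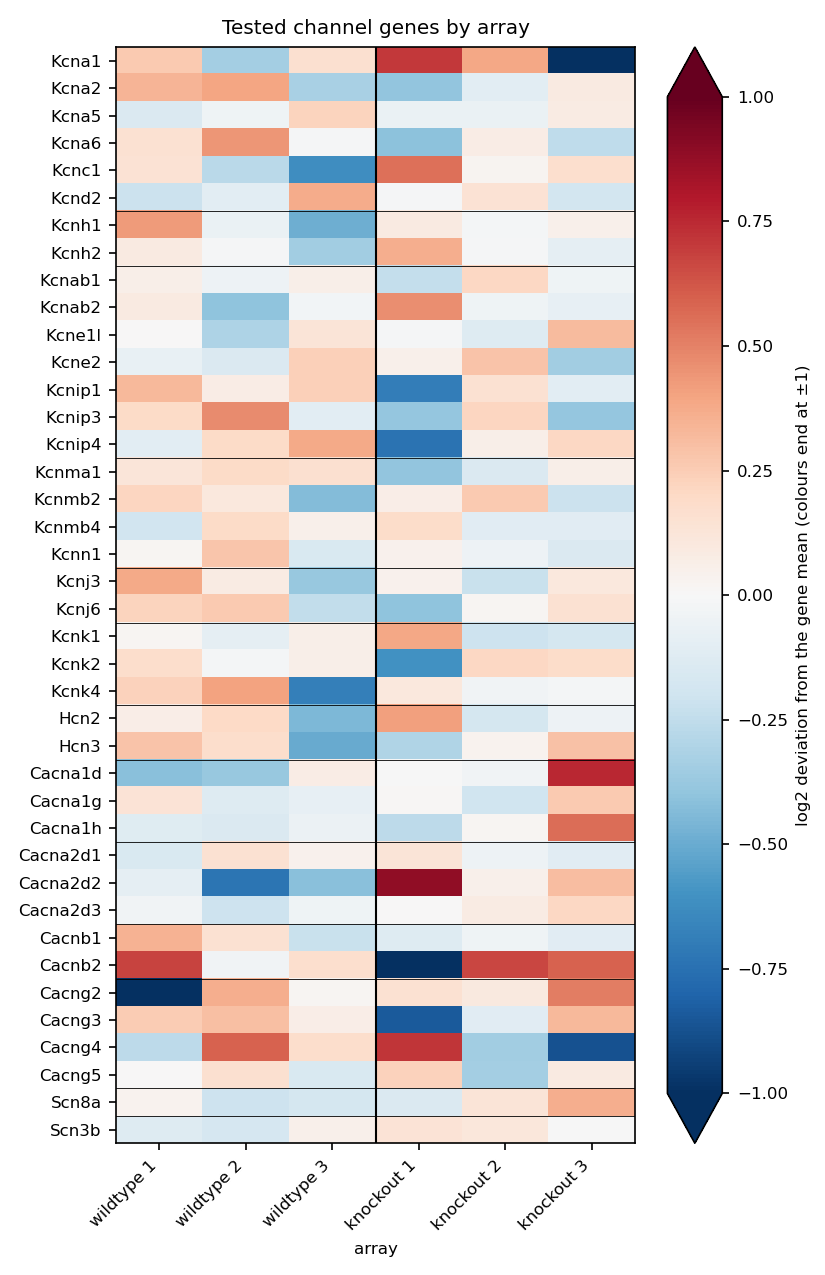
Log2 deviation of each array from the gene's mean over the 6 arrays (colour, ending at ±1), with the 40 tested channel genes as rows in family order and the arrays as columns. Knockout array 1 has strong colours in both directions, and in 3 rows, Cacna2d2, Cacna2d3 and Kcnma1, the wildtype and knockout columns do not overlap.

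Knockout array 1 gave the widest deviations in the channel genes, as it did in all probe sets. Its median absolute deviation from the gene means was 0.25 on the log2 scale for the 40 channel genes, against 0.11 to 0.19 in the other arrays, and 0.21 for all tested probe sets, against 0.13 to 0.16. It was the lowest array for 11 of the 40 genes (27.5%) and the highest for 10 (25%), shares that stood at 28.2% and 25.3% over all tested probe sets. Its correlation with the other arrays was 0.914 to 0.936, where the other 5 had 0.958 to 0.979 among themselves. Per array, the median deviation of the channel genes lay between -0.018 and 0.078 in wildtype and between 0.0057 and 0.056 in knockout. These ranges overlapped at this scaling, and a shift of the channel genes as a set was not tested.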

How the data were processed

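The authors deposited linear intensity values, 1 per probe set and array, from MAS5 (per the submitters' processing notes); version, scaling target and detection calls are not given in the sources used here. Of 22690 probe sets, 64 are controls and were not used. Arrays were rescaled to a common mean, trimmed by 2% at either end. A pseudocount of 19.1 (20th percentile) was added, and log2 values of the 13575 probe sets with a mean above the 40th percentile were fitted in limma 3.58.1 (R 4.3.3; lmFit, eBayes with intensity trend, Benjamini-Hochberg over all). With 3 against 3, a permutation of 1 value cannot go below p = 0.1, so none is printed.

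The members and lists were chosen with earlier results of these data known. Named genes were those past the threshold, those 1.5-fold apart without overlap, up to 2 tested genes per family by moderated statistic, and a fixed list of 15, of which 11 were found; the others were not analysed here. The remaining tested genes are given with fewer values. Symbols come from the platform annotation, where 20380 probe sets had a single symbol, 691 several and 1555 none, updated by Entrez identifier against RefSeq GRCm38.p6 (20351 matched). The fit was tested on simulated arrays, with 200 of 13575 probe sets changed in each of 10 runs: the share recovered was 4% for 1.5-fold, 48.6% for 2-fold and 89.8% for 3-fold changes. For 4-fold changes, planted among the same 200, the share was 94.2%. False calls made up 5.59% of all calls. The simulated arrays all had the same spread, while knockout array 1 was wider here. Changes were set on the scale of signal plus pseudocount, where the fold of a dim gene is smaller than in signal. Planting 200 changes, with large ones among them, also eases the Benjamini-Hochberg cut-off, while only 2 of the 13575 probe sets passed in the real data. The median standard error was 0.22 for the channel genes and 0.20 for all tested probe sets. The recovered shares may therefore be too high for the real arrays, and are not the chance of finding a change in a channel gene. Probe sets ending in _s_at, _x_at or _a_at (9 of the 40) can hybridise with related transcripts. The targeted gene is not reported here, so the labels were not checked against it.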

Additional observations from a re-analysis of the deposited data

How the results depend on the processing

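In each of the 19 alternatives 0 channel genes and 0 partner genes passed the test in limma, with 1 to 4 channel genes at an unadjusted p under 0.05. The count of channel genes 1.5-fold apart without overlap (1) was 2 with no rescaling (Cacna2d2 and Kcnc1), 2 with no filter (Cacna2d2 and Scn10a) and 2 without both knockout array 1 and wildtype array 2 (Cacng2 and Cacng4, with Cacna2d2 lost), and 2 to 5 when single arrays were dropped (5 without knockout array 2), where overlap is less likely; Cacna2d2 was among them each time an array was dropped. The median of the tested channel genes moved to 0.27 with no rescaling, as that of all tested probe sets moved to 0.29, and lay between -0.048 and 0.0039 when single arrays were dropped. The log2 fold change of Cacna2d2 ran from 0.43 to 1.12 over all settings, and 11 of the 27 tested genes named by rule kept their sign in each.

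Signs turned in 40 cases, over 15 of the named genes, and the cause was not tested. Values below the filter are outside this count. There Kcnma1 had 0.22 in its dimmer probe set, and Kcnj14 ran from -0.35 to 0.25 over all settings. Kcnq1 ran from -0.12 to 0.067 and Scn2a from -0.090 to 0.22. Among tested genes, the turned values with no rescaling were 0.088 for Cacnb1, 0.10 for Kcnj6, 0.12 for Kcnk2, 0.18 for Kcnn1, 0.22 for Kcnj3 and 0.25 for Cacna2d1. With median scaling Kcnj3 had 0.031 and Cacna2d1 0.056, and with quantile normalization 0.0090 and 0.033. With array weights Kcnh1 had -0.041, Hcn2 -0.082, Kcnk1 -0.11, Kcnk4 -0.16, Kcnk2 0.031 and Cacnb2 0.039. With the mean of the tested probe sets Scn3b had -0.32. Without both knockout array 1 and wildtype array 2, Kcnab2 had -0.097, Kcnk1 -0.23, Kcnk2 0.075, Kcnj6 0.099 and Cacnb2 0.21. With 1 array left out the ranges were -0.010 to 0.40 for Cacna1h, -0.11 to 0.041 for Cacna2d1, -1.003 to 0.36 for Cacnb2, -0.067 to 0.26 for Hcn2, -0.22 to 0.18 for Hcn3, -0.14 to 0.32 for Kcnh1, -0.25 to 0.13 for Kcnj3, -0.32 to 0.0082 for Kcnj6, -0.19 to 0.11 for Kcnk1, -0.28 to 0.12 for Kcnk2, -0.30 to 0.24 for Kcnk4 and -0.20 to 0.017 for Kcnn1.

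The replicate block fit called 0 channel genes (smallest limma adjusted p = 0.52, with 3 at an unadjusted p under 0.05) and changed no call. Whether the numbers pair the arrays is unsettled: arrays with the same number had deviations that correlated at 0.18, -0.029 and 0.084, and wildtype array 3 correlated most with knockout array 2 (0.26). Signal near background limits the 54 genes below the filter, whose log2 fold changes the pseudocount pulls toward 0. It also pulls those of the dimmer tested genes, to a lesser degree.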
